A study of Homo sapiens with 6 samples.

Results

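In SKOV3 ovarian cancer cells, 63 protein-coding genes were detected in all control libraries and were at or next to 0 reads once KLF5 had been silenced. They were taken from a table of 29185 genes, 16074 of them protein-coding. A gene was included when each control library had a normalized count of at least 16 (the reads on the gene divided by 1 size factor of its library) and each library with silenced KLF5 had at most 3.5. In whole reads the upper limit meant 3 reads or fewer in every library with silenced KLF5. Of 76 protein-coding genes inside both limits, 13 were dropped by name, among them MME, THY1, SPARC and COL1A2. Because the genes were chosen by the difference between the groups, that difference is given below as a description and was not tested. With the groups exchanged and the names dropped in the same way, the limits selected 1 gene, CYP24A1, the enzyme that inactivates vitamin D.

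SKOV3 is an established human line of ovarian cancer cells. Polyadenylated RNA was sequenced from 3 libraries of cells that stably carried a KLF5 short hairpin in the pLKO.1-EGFP-Puro vector (sh-KLF5) and from 3 libraries of control cells (sh-NC), which the labels list as wild type in genotype. The stable lines of the study were selected with puromycin, and the libraries hold 1 KLF5 construct and no rescue of KLF5. Nothing in the labels ties the libraries of a group to separate cultures, so all p-values below measure the spread between these libraries, which may be technical.

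KLF5 is a zinc finger transcription factor of the Krüppel-like family. It binds GC-rich DNA and is known from epithelia, where it acts in proliferation and differentiation. Epithelial cells normally keep the genes of other lineages, such as those of synapses, muscle or the connective tissue, silent or low, while cancer cell lines often transcribe some of them. The silencing of such genes in a lineage usually involves both their transcription factors and the chromatin around them.

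KLF5 itself had 4371, 4425 and 4494 normalized counts in control libraries 1, 2 and 3, and after silencing 1745, 1440 and 1436. Its log2 fold change was -1.53 (SE 0.12, adjusted p = 2.47e-07, limma with Benjamini-Hochberg adjustment), and 34.8% of its control level remained. The libraries held 15852319 to 17543896 reads. Of 15803 genes with enough reads to be tested, 533 (3.37%) were called lower in sh-KLF5 and 301 (1.9%) higher, at an adjusted p under 0.05 and a log2 fold change below -1 or above 1. In 15.9% of the tested genes every sh-KLF5 value was lower than the lowest control, and in 15.4% every sh-KLF5 value was higher than the highest control. All 63 genes were tested, called lower and without overlap between the groups, which the limits of the selection fix.

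Together the 63 genes held 4249, 2973 and 2762 reads in control libraries 1, 2 and 3, and 58, 53 and 67 reads after silencing. In normalized counts their control sum was 3272 ± 592 and their sum after silencing 59.2 ± 7.88 (SD, n = 3), so that 1.81% of the control sum remained. Control library 1 held the highest sum, while the sh-KLF5 libraries lay close together. They were genes of low level in the control cells. Their control means ran from 19.4 normalized counts for the zinc finger gene ZFP82 to 201 for GPM6A, with a median of 40.9, and 39 of the 63 stood under 50. Per kilobase of exon the median control mean was 8.60 normalized counts, against 110 over the protein-coding genes with every control library at 16 or more. In these bulk libraries, fewer cells that carry a transcript and less of the transcript in each cell cannot be told apart.

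**Figure D1:**
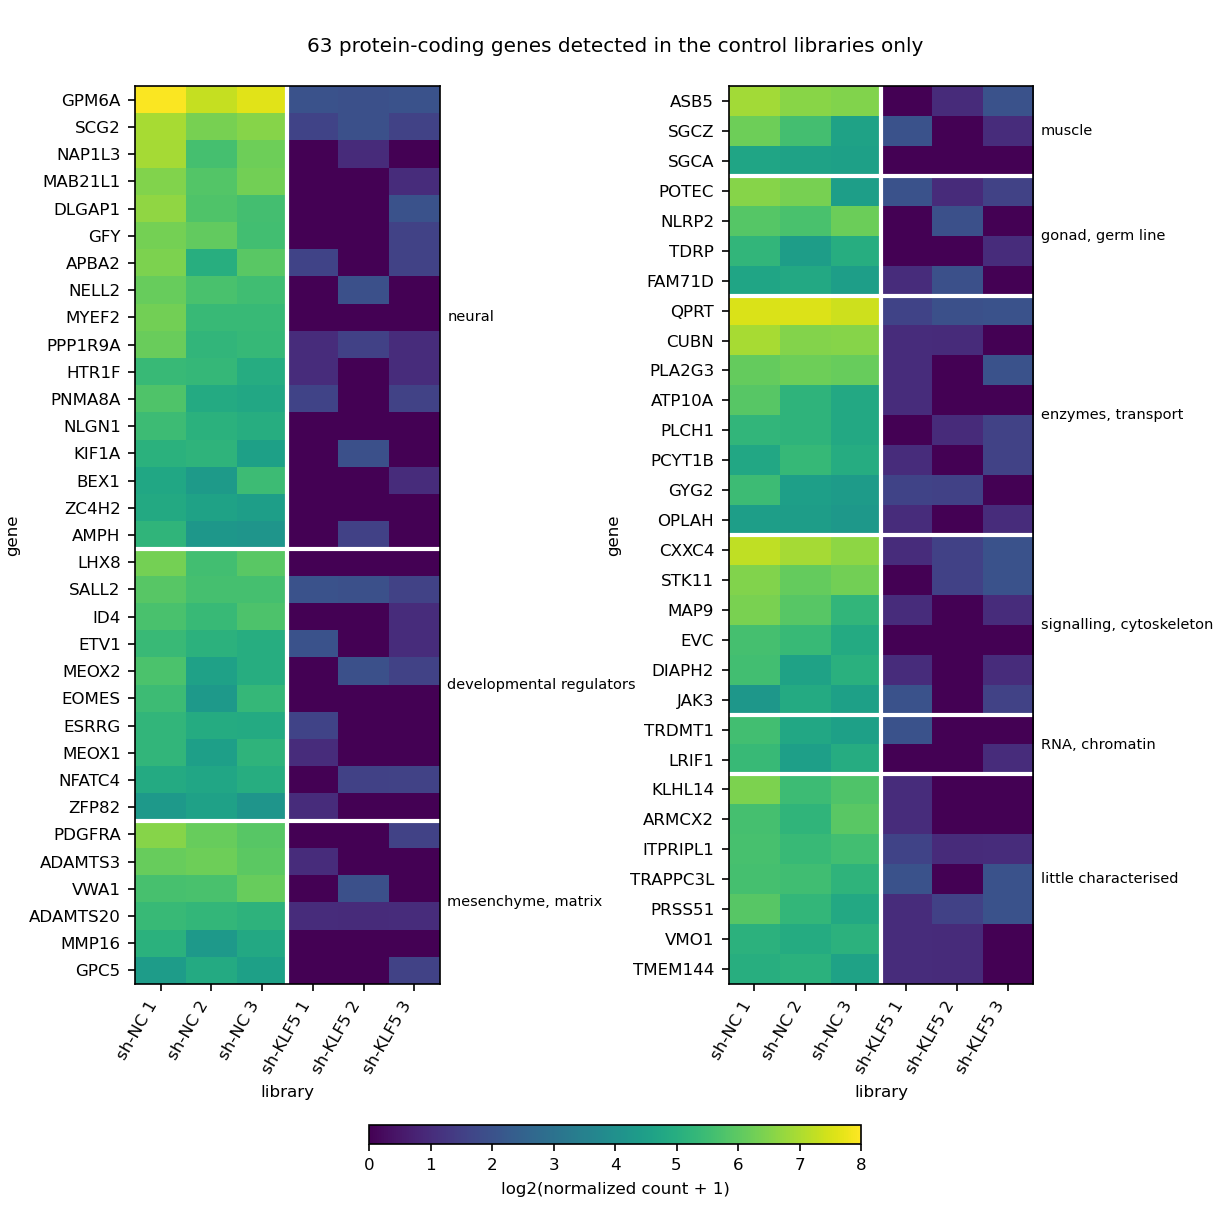
Level of each of the 63 genes (rows, grouped by what they are known for) in each of the 6 libraries (columns), as log2(normalized count + 1) on the colour scale. Within each group genes are ordered by their control mean. All control columns are bright and all sh-KLF5 columns dark, as the selection requires, and control library 1 is the brightest in 47 of the 63 rows.

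The largest group, 17 genes, is known from neurons or the developing nervous system. Groups were assigned gene by gene from what each is known for, and the share of such genes among all protein-coding genes was not measured. GPM6A, a membrane glycoprotein of neurons related to the myelin proteolipid protein, had 248, 156 and 198 normalized counts in control libraries 1, 2 and 3, and 3 reads in each sh-KLF5 library. It was the most abundant of all 63 genes and the 1 gene that kept 3 reads in every sh-KLF5 library. SCG2, a secretogranin of dense-core vesicles, had 124, 81.8 and 92.3 normalized counts in sh-NC and 2, 3 and 2 reads in sh-KLF5. NAP1L3, a nucleosome assembly protein found mainly in brain, had 119, 49.3 and 74.3 normalized counts in sh-NC and 0, 1 and 0 reads in sh-KLF5. For all of these genes library 1 was the highest control. DLGAP1, a scaffold of the postsynaptic density, had 101, 54.2 and 47.7 normalized counts in sh-NC and 0, 0 and 3 reads in sh-KLF5. MAB21L1, a gene of eye and brain development, had 88.5, 57.2 and 77.5 in sh-NC and 0, 0 and 1 reads. GFY, a Golgi protein of olfactory neurons, had 80.1, 66.0 and 46.7 in sh-NC and 0, 0 and 2 reads. The synaptic adhesion gene NLGN1, MYEF2 and ZC4H2 had 0 reads in all sh-KLF5 libraries, from control means of 36.0 ± 6.85, 53.7 ± 21.3 and 24.3 ± 3.40 (SD, n = 3). Taken against 3 reads per library, MYEF2 was at least 17.9-fold lower and NLGN1 at least 12.0-fold. The other neural genes had control means from 23.7 to 58.9 and at most 3 reads in any sh-KLF5 library. They were APBA2, an adaptor of the amyloid precursor protein, NELL2, the actin-binding PPP1R9A (neurabin), the serotonin receptor HTR1F, PNMA8A, the axonal motor KIF1A, BEX1 and AMPH (amphiphysin).

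Another 10 genes encode regulators of transcription, most of them from development. LHX8, a LIM homeobox gene of forebrain neurons and oocytes, had 80.1, 46.3 and 60.5 normalized counts in sh-NC and 0 reads in all sh-KLF5 libraries, at least 20.8-fold lower. EOMES, a T-box gene of early mesoderm and cortex, also had 0 reads in sh-KLF5, from 43.8, 18.7 and 39.3 in sh-NC, at least 11.3-fold lower. The selection required both to be above the floor in each control library, and EOMES was close to the lower limit of 16 in library 2. The homeobox genes of the somites were listed side by side, with 37.2, 21.7 and 36.1 normalized counts in sh-NC for MEOX1 and 52.1, 22.7 and 30.8 for MEOX2. MEOX1 had 1, 0 and 0 reads in sh-KLF5, and MEOX2 had 0, 3 and 2. SALL2 (control mean 52.6 ± 6.10), ID4, an inhibitor of basic helix-loop-helix factors (48.5 ± 6.27), the ETS factor ETV1 (35.7 ± 5.66), the orphan nuclear receptor ESRRG (31.8 ± 4.72), NFATC4 (28.4 ± 2.60) and ZFP82 (19.4 ± 2.93) completed this group (SD, n = 3). LHX8 shares 12.7% of its exonic bases with the antisense gene AC099786.2, whose 20, 11 and 16 reads in sh-NC became 3, 1 and 0 in sh-KLF5.

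Genes of mesenchyme, matrix and muscle made up 9 of the 63. PDGFRA, the alpha receptor for platelet-derived growth factor and a marker of fibroblasts, had 92.2, 69.0 and 59.4 normalized counts in sh-NC and 0, 0 and 2 reads in sh-KLF5. ADAMTS3, a procollagen N-proteinase, had 68.9, 73.9 and 62.6 in sh-NC and 1, 0 and 0 reads. ADAMTS20 (38.1 ± 2.99), the membrane-anchored metalloproteinase MMP16 (26.6 ± 7.45), the glypican GPC5 (23.8 ± 4.25) and the matrix protein VWA1 (57.2 ± 11.1) had 3 reads or fewer in every sh-KLF5 library, and MMP16 had none in all of them. Among the muscle genes, ASB5, a substrate adaptor of a ubiquitin ligase known from muscle, was the highest, with 116, 94.6 and 89.1 normalized counts in sh-NC and 0, 1 and 3 reads in sh-KLF5. The sarcoglycan SGCZ had 74.5, 48.3 and 23.3 in sh-NC, a wide spread among controls. The sarcoglycan SGCA had 25.1, 23.6 and 22.3 in sh-NC and 0 reads in sh-KLF5, among the narrowest spreads.

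A further 8 genes encode enzymes or transporters. QPRT, which makes a precursor of NAD from quinolinate, had 187, 191 and 166 normalized counts in sh-NC and 2, 3 and 3 reads in sh-KLF5, and was per kilobase the highest of the 63 genes, at 49.8. CUBN, cubilin, the endocytic receptor of kidney tubule and intestine, had 122, 90.7 and 92.3 in sh-NC and 1, 1 and 0 reads. The secreted phospholipase PLA2G3 had 68.0, 74.9 and 69.0 in sh-NC and 1, 0 and 3 reads. QPRT and PLA2G3 thus varied little between control libraries. The remaining enzyme and transport genes were the phospholipid flippase ATP10A, the phospholipase PLCH1, PCYT1B of phosphatidylcholine synthesis, the glycogenin GYG2 and OPLAH of the glutathione cycle, whose control means reached 40.9 normalized counts (ATP10A).

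Of 6 genes of signalling and cytoskeleton, CXXC4, an inhibitor of Wnt signalling, was the highest, with 149.9, 119 and 99.7 normalized counts in sh-NC and 1, 2 and 3 reads in sh-KLF5. STK11 encodes LKB1, the tumour suppressor kinase that activates AMPK. It had 88.5, 68.0 and 77.5 in sh-NC and 0, 2 and 3 reads in sh-KLF5. MAP9 of the mitotic spindle, the formin DIAPH2 and the cytokine receptor kinase JAK3 had control means of 59.7 ± 22.9, 34.4 ± 11.5 and 22.8 ± 5.46 (SD, n = 3). EVC of the cilium had 48.4, 41.4 and 28.6 in sh-NC and 0 reads in all sh-KLF5 libraries. TRDMT1, a methyltransferase of transfer RNA, had 46.6, 26.6 and 22.3 in sh-NC and 3, 0 and 0 reads in sh-KLF5. LRIF1, a partner of the chromatin protein SMCHD1, had 41.0, 21.7 and 29.7 in sh-NC and 0, 0 and 1 reads.

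The genes of gonad and germ line were POTEC, NLRP2, TDRP and FAM71D, with control means from 24.7 to 64.7. POTEC belongs to a family of near-identical copies, so its reads could be divided among them and its values are uncertain. The remaining 7 genes are little characterised, and comprise KLHL14, ARMCX2, ITPRIPL1, TRAPPC3L, PRSS51, VMO1 and TMEM144, with control means from 29.5 to 60.7. Of all 63 genes, 8 had no read in any sh-KLF5 library and 32 had at most 2 reads over the 3 libraries.

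The limits cut through a continuous range of values. Just inside the lower limit, the lowest control libraries of AMPH and ZFP82 stood at 17.0 and that of JAK3 at 17.7 normalized counts. Just outside it, those of TBX15, FOXN4 and FLG stood at 15.9 each, with 2 reads or fewer in every sh-KLF5 library. At the upper limit, GPM6A, SALL2 and POTEC had a highest sh-KLF5 library of 3.06 normalized counts. CALHM4 and SERPING1 with 3.88 and PIANP with 4.01 lay just outside. Of the 63 genes, 40 share no exonic base with another gene, and in the other 23 no overlap with another gene exceeded 20% of the exonic bases. Among the abundant genes, PDGFRA and QPRT share 15.8% and 15.7% of theirs with another gene on the same strand that the table does not list.

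To ask which tissue or lineage the genes mark, they were compared with 16 lists of cell type markers. Only PDGFRA (fibroblast), GPM6A (neuron) and CUBN (kidney proximal tubule) of the 63 stand in any of these lists. The other genes of the same lists were then examined in the same contrast. COL1A2, SPARC and THY1 of the fibroblast list are inside both limits and were left out of the 63 by name, so that their values were used in the selection. In the neuron list 5 genes besides GPM6A were tested. NEFL, the light neurofilament, was lower (log2 fold change -1.02, SE 0.15, from 413 ± 32.9 to 205 ± 28.6 normalized counts, SD, n = 3), and the other 4 were not called. Of these, L1CAM had a log2 fold change of -0.96 (SE 0.12) and MAP2 of 0.70 (SE 0.15), with adjusted p = 5.7e-05 and 0.0054 (limma), so that these missed the fold threshold alone (L1CAM was called without sh-KLF5 library 2, -1.03), and SYP and TUBB3 had log2 fold changes of -0.40 and -0.02. The call of NEFL was lost without sh-NC library 3 (-0.95) or sh-KLF5 library 2 (-0.92), where its fold was under the threshold. Of the 18 genes of that list, 9 were at 3 reads or fewer in every library or not listed, among them SNAP25, NCAM1, GAP43, STMN2 and DCX. Many defining neuronal markers were thus at or near 0 in the control cells, although L1CAM reached 4776 reads and MAP2 1369, and the 17 neural genes described above were measurable.

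In the fibroblast and mesenchymal list, 9 of 19 tested genes besides PDGFRA were lower in sh-KLF5 and 1, FAP, was higher (log2 fold change 1.90, SE 0.29). The largest falls were those of POSTN (-6.12, SE 0.31), SPARC (-5.79, SE 0.51), THY1 (-5.45, SE 0.51) and the intermediate filament gene VIM (-5.30, SE 0.19). COL1A2, COL3A1, DCN, FBN1 and TWIST1 were lower too, with log2 fold changes from -3.58 to -1.46. The selection leaves out POSTN, SPARC, THY1 and the collagens by name. Without these 6 tested genes, 4 of 13 were lower (VIM, DCN, FBN1 and TWIST1) and 1 higher, with a median log2 fold change of -0.08, against -0.0023 over all 15803 tested genes. The summed level of the list was 25802 to 28645 normalized counts in the control libraries and 30117 to 34982 after silencing. FN1 alone made up most of each sum, with 16259 to 17786 normalized counts in sh-NC and 24278 to 29712 in sh-KLF5. The sums thus mainly follow FN1, which was not called because of the fold threshold alone (log2 fold change 0.63, adjusted p = 0.0016, limma). All p-values behind these calls were from limma, adjusted over the 15803 tested genes.

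In the kidney list GGT1 was lower (log2 fold change -2.05, SE 0.40) and the other 3 tested genes besides CUBN were not called. The partners of cubilin were near the floor, AMN with 14 reads or fewer and LRP2 with 4 or fewer in every library. In the skeletal and cardiac muscle list no call was made for the 3 tested genes (MYH3, TTN and NEB), and 10 of 16 were at 3 reads or fewer or not listed, among them MYOD1, MYOG, MYF5, PAX7 and CKM. TNNC1, the troponin C of slow and cardiac muscle, had 19, 6 and 24 reads in sh-NC and 0 reads in all sh-KLF5 libraries. It was not tested because of the low-count filter, and without the filter it was called lower. In the list of germ line and pluripotency, neither tested gene (POU5F1 and SYCP3) was called, and 7 of 11 were at 3 reads or fewer or not listed. Most genes of both lists were thus at or near the floor in both groups.

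The labelled cell type was checked against its own markers. In the list of ovarian carcinoma and Müllerian epithelium, MUC16, MUC1 and KRT8 were lower among 12 tested genes (log2 fold changes -1.54, -1.20 and -1.17). At an unadjusted p under 0.05 in limma, 7 of the 12 were lower. The share of all tested genes at that unadjusted p was not counted, here or for the lists without a call below. KRT7, KRT18, MSLN and CLDN4 had log2 fold changes of -0.78, -0.64, -0.71 and -0.85 with adjusted p = 0.0011, 0.0034, 0.0087 and 0.044 (limma), short of the fold threshold, and PAX8, EPCAM and CDH1 had -0.25, -0.03 and -0.15. The median of the list was -0.67, and its summed level was 53033 to 64715 normalized counts in sh-NC and 27673 to 37647 in sh-KLF5. Most of each sum came from KRT7 and KRT8, with control means of 32104 and 21816. Without the 5 tested keratin and claudin genes, whose names the selection drops, 2 of 7 were lower and the median was -0.25. SOX17, EMX2, WT1 and CDH6 of this list were not listed. In the smooth muscle and pericyte list MYL9, NOTCH3 and CSPG4 were lower and ACTA2 higher among 11 tested genes, in the mesothelium list UPK3B and BNC1 were lower among 5, and in the trophoblast list ALPP was lower and GATA3 and PAPPA higher among 5. RUNX2 and SOX9 of the bone and cartilage list were higher among 3 tested genes, and TEK of the endothelium list was higher among 6. The calls of MUC16 (-1.30 without sh-NC library 1), KRT8 (-0.99) and CSPG4 (-0.83, both without sh-KLF5 library 1), UPK3B (-1.95 to -1.51 over the fits that lost it), GATA3 (1.48 to 1.67) and TEK (1.75 to 2.25) were lost in fits that left out 1 library. No call was made in the lists of neural crest and glia (5 tested), blood (1), ovarian granulosa, theca and stroma (4), adipocytes (3) and endoderm (1). Together with muscle and germ line these lists held 19 tested genes, 4 of which had an unadjusted p under 0.05 in limma, and edgeR and DESeq2 on 5 libraries also called 0 of them. The blood markers were at 3 reads or fewer or not listed for 12 of 16 genes. The part of other cell types in the 63 genes was not tested.

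**Figure D2:**
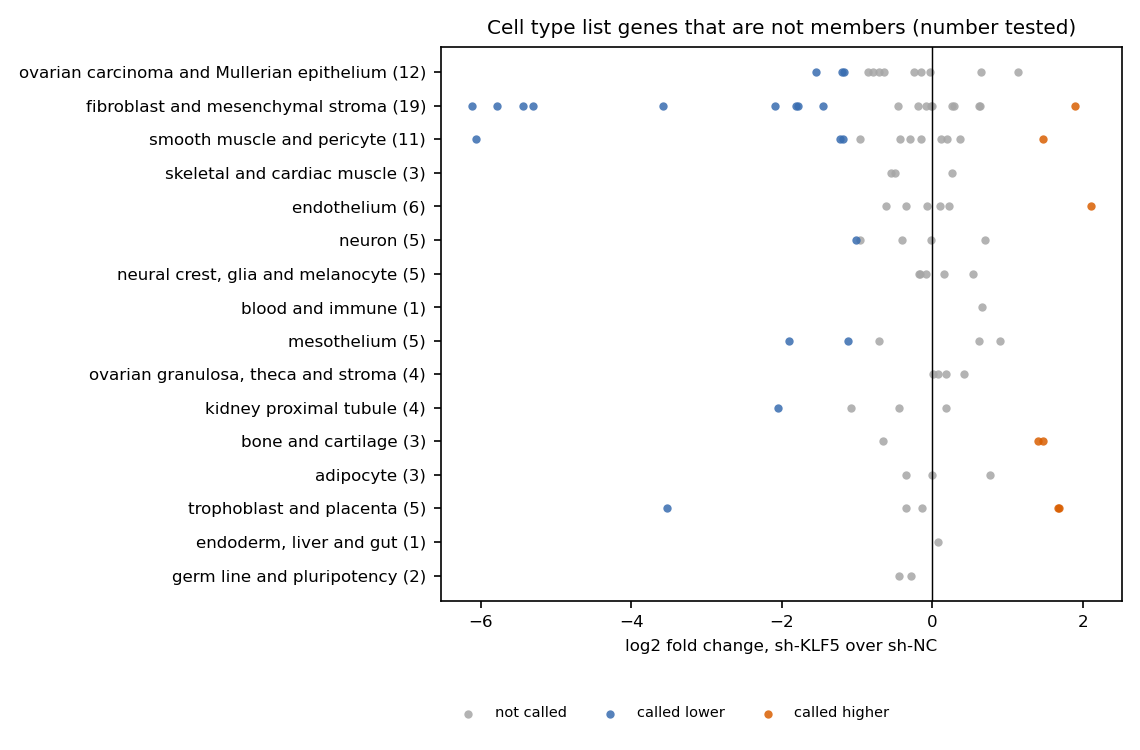
Log2 fold change (sh-KLF5 over sh-NC, horizontal axis) of each tested gene of the 16 cell type lists, without the 63 selected genes. Blue points were called lower and orange points higher by limma, and the number of tested genes stands behind each list. The fibroblast list has 9 blue points of 19, of which 5 are genes that the selection leaves out by name, and no other list has more than 3.

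Control library 1 was the highest of the 3 for 47 genes (74.6%), library 2 for 10 and library 3 for 6. Relative to the mean of the other 2 control libraries, library 1 had a median log2 ratio of 0.39 and a mean of 0.41. The protein-coding genes with control means in the same range, 3002 genes, had library 1 as the highest in 36.0% and a median log2 ratio of 0.03. For the other 338 protein-coding genes called lower with every control library at 16 or more, these values were 58.0% and 0.18, and for the 181 called higher 42.5% and 0.08. KLF5 itself was not higher in library 1. The groups of genes were not drawn at random and their genes share the libraries, so these shares are a description and were not tested.

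VIM moved in the same way as most of the 63 genes, with 4068, 2614 and 2918 normalized counts in sh-NC libraries 1, 2 and 3. Library 1 was the highest in 15 of the 17 neural genes, with a median log2 ratio of 0.51, in all 3 muscle genes (0.34) and in both RNA and chromatin genes (0.80). The exceptions were BEX1, with 26.1, 19.7 and 43.5 normalized counts in sh-NC, and KIF1A, with 33.5, 35.5 and 22.3. Among the mesenchyme and matrix genes library 1 was the highest in 3 of 6, with a median log2 ratio of 0.09. Counting error alone is large at these levels. The 95% interval of the ratio of library 1 to the others, from the reads and for counting error only, lay above 1 for 28 genes and held 1 for 35, and it lay below 1 for none. This interval was computed for the 63 genes alone, so no share over other genes stands beside these counts.

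The ratio of the highest to the lowest control library had a median of 1.55 over the 63 genes, against 1.33 over the protein-coding genes in the same range of control means. It was at least 2 for 15 of the 63 (23.8%) and for 4.73% of the comparison genes. The comparison genes share the range but were not matched in level to the 63, and counting error widens this ratio at low levels. The largest ratios were those of POTEC (4.34, from 92.2, 80.8 and 21.2 normalized counts in sh-NC libraries 1, 2 and 3), SGCZ (3.19), APBA2 (2.69, from 84.7, 31.5 and 60.5), NAP1L3 (2.42) and EOMES (2.34). POTEC and SGCZ were lowest in library 3, and APBA2, NAP1L3 and EOMES in library 2. The smallest ratios were those of PLA2G3 (1.10), SGCA (1.13), QPRT (1.15), VMO1 (1.17) and ADAMTS20 (1.17). These are the extremes of 63 ratios, many of them from few reads, so they do not mark separate kinds of gene.

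**Figure D3:**
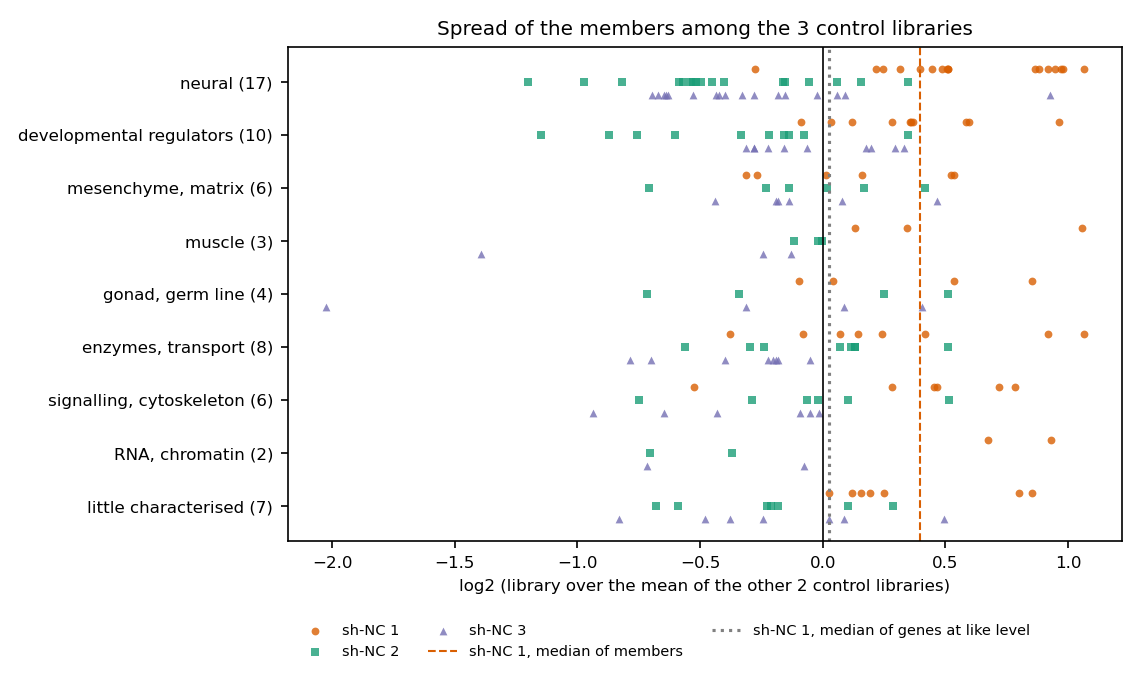
Log2 ratio of each control library to the mean of the other 2 (horizontal axis), for every one of the 63 genes, by group with the number of genes. The dashed line marks the median of control library 1 over the 63 genes (0.39) and the dotted line that over protein-coding genes of the same range of control means (0.03). Most orange points, library 1, lie to the right of 0.

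Relatives of the genes that are not among the 63 were measured as a further comparison. Relatives inside the 63, such as SGCZ and SGCA or MEOX1 and MEOX2, are left out of the counts that follow. For 39 of the 63 genes, 98 genes of the same families, complexes or pathways were listed, 62 of which were tested. By limma, 0 of the 62 were called lower and 2 were called higher, with a median log2 fold change of 0.05. Over all tested protein-coding genes 3.61% were called lower and 1.93% higher, so that both counts are near the background. At an unadjusted p under 0.05 in limma, 9 were lower and 15 higher. The share of all tested genes at that unadjusted p was not counted, so these numbers have no background beside them. With edgeR and DESeq2 on 5 libraries, also 0 were called lower and 2 higher. Without sh-KLF5 library 1, limma called 2 lower, PDGFC (-1.78) and ID2 (-1.54). Among those not tested, GPC6, a relative of GPC5, went from 10, 10 and 8 reads in sh-NC to 0, 1 and 0 in sh-KLF5. NAP1L5 and NAP1L2, relatives of NAP1L3, went from 13, 3 and 4 and from 5, 3 and 8 reads to 0, 0 and 0 and to 1, 0 and 0. All 3 were called lower without the filter. ATP10B, a relative of ATP10A, was tested and not called (log2 fold change -1.45, SE 0.50, from 14.1 ± 2.16 to 4.64 ± 1.46 normalized counts, SD, n = 3).

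The genes called higher were SCG5, a chaperone of the secretory granule listed with SCG2 (from 57.9 ± 11.4 to 190.1 ± 19.5 normalized counts, SD, n = 3, log2 fold change 1.71, SE 0.20), and MMP24, a relative of MMP16 (from 14.3 ± 4.51 to 51.0 ± 13.3, log2 fold change 1.76, SE 0.34). The partners of STK11 in its active complex, STRADA, STRADB and CAB39, had log2 fold changes of -0.46, -0.49 and 0.18 and were not called. Of the ligands of PDGFRA, PDGFA had 582 ± 36.1 and 1115 ± 133 normalized counts (log2 fold change 0.93). It missed the fold threshold alone (adjusted p = 8.05e-05, limma). PDGFC had 15.8 ± 1.66 and 6.04 ± 3.71 (-1.43) and was not called (adjusted p = 0.099, limma). The related receptor PDGFRB was too low to be tested. Beside ID4, ID1 and ID3 had log2 fold changes of -0.37 and 0.78 and ID2 of -1.22 (adjusted p = 0.052, limma, called lower without sh-KLF5 library 1 or 3), and beside ETV1, ETV5 had 0.82. ID3 and ETV5 missed the fold threshold alone (adjusted p = 0.0053 and 0.00062, limma). The enzymes next to QPRT in the synthesis of NAD were present as well, with log2 fold changes of 0.70 for KYNU, 0.50 for NAMPT and -0.17 for NAPRT. Of these, KYNU and NAMPT missed the fold threshold alone (adjusted p = 0.0012 and 0.016, limma). For JAK3, PCYT1B and GYG2, the relatives JAK1, PCYT1A and GYG1 were between 865 and 3784 normalized counts in sh-NC and were not called. In the X-linked families, ARMCX3 and ARMCX4 had log2 fold changes of 0.33 and -0.68 beside ARMCX2, and BEX3 had 0.51 beside BEX1. ARMCX4 and BEX3 missed the fold threshold alone (adjusted p = 0.020 and 0.0091, limma).

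**Figure D4:**
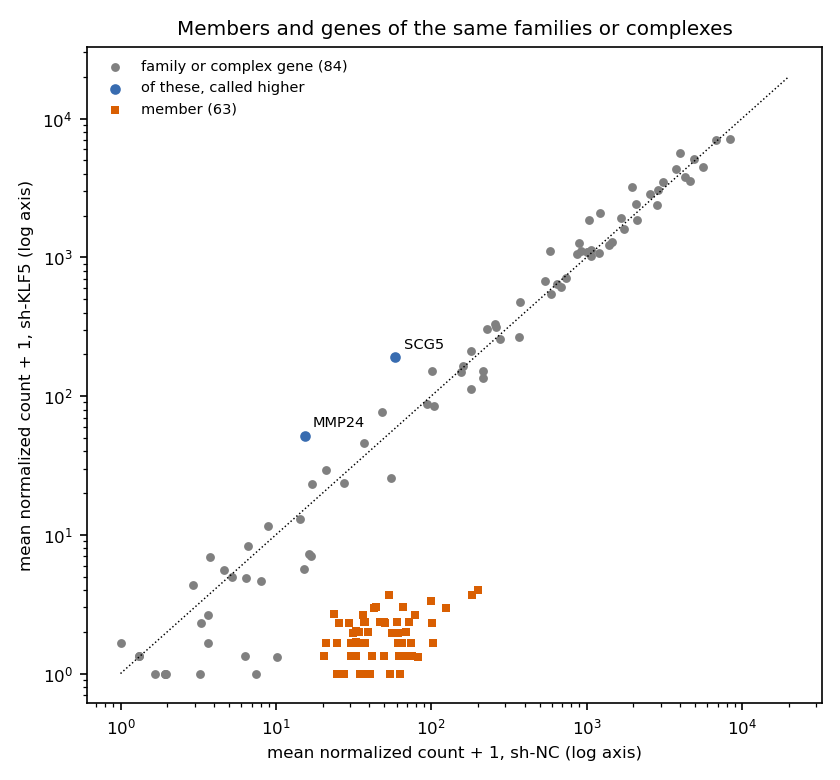
Mean normalized count plus 1 in sh-NC (horizontal, log axis) and sh-KLF5 (vertical, log axis) of the 63 genes (orange squares) and of 84 listed genes of their families or complexes (grey circles, those called higher in blue). The dotted line marks equal levels. Most grey circles lie near this line, with SCG5 and MMP24 above it and GPC6, NAP1L5, NAP1L2 and ATP10B below it, while the squares lie near the bottom, as the selection requires.

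The genes around the 63 were examined next. The nearest tested protein-coding gene on each side gave 119 neighbours outside the 63. Of these, 14 (11.8%) were called lower and 1 (0.84%), GAREM1 beside KLHL14, higher, against 3.61% and 1.93% of the 12806 tested protein-coding genes. The 14 include MME beside PLCH1, which is inside both limits and left out by name, so that the selection fixed its call. Within 100 kb there were 49 neighbours, 6 of them lower (12.2%). Without sh-NC library 2 or 3, 12 of the 119 were called lower. A neighbour called lower stood beside 16 of the 63 genes, 46 had no called neighbour, and none had such a neighbour on both sides. These shares are given as a description. The median log2 fold change of the neighbours was -0.05, so that most of them kept their level.

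Several of these neighbours were themselves near 0 in sh-KLF5. CCDC8 beside PNMA8A fell from 57.4 ± 14.2 to 1.36 ± 2.35 normalized counts (log2 fold change -5.06, SE 0.62), TUSC3 beside SGCZ from 66.5 ± 2.49 to 2.69 ± 3.12 (-4.61, SE 0.58), and POU1F1 beside HTR1F from 42.1 ± 9.96 to 2.67 ± 2.56 (-3.88, SE 0.61; SD, n = 3; limma). MME, the membrane peptidase beside PLCH1, is inside both limits and was left out by name. It fell from 175 ± 35.1 normalized counts to 0 in all sh-KLF5 libraries. CALHM4, just outside the upper limit, overlaps the locus of TRAPPC3L.

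On chromosome 10, CUBN and TRDMT1 lie 12.4 kb apart next to VIM. VIM had 80.4 ± 21.5 normalized counts in sh-KLF5, 2.51% of its control level. ST8SIA6, the next gene on the far side of VIM, had 16, 9 and 4 reads in sh-NC and 1, 0 and 0 in sh-KLF5, too few to be tested. On the outer sides, RSU1 kept 59.6% of its level (log2 fold change -0.75, SE 0.12) and HACD1 87.1%, and neither was called. RSU1 missed the fold threshold alone (adjusted p = 0.00044, limma). CUBN, TRDMT1 and VIM, 3 neighbours, were thus at 0.65%, 3.20% and 2.51% of their control levels, and the few reads of ST8SIA6 set no such limit.

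On chromosome 4, GPM6A and ASB5 lie 211 kb apart with WDR17 between them. WDR17 had 44, 39 and 13 reads in sh-NC and 0 reads in all sh-KLF5 libraries (log2 fold change -4.86, SE 0.65, limma). On the outer side of ASB5, SPCS3 was not called (log2 fold change 0.25). WDR17 missed the selection by control library 3 alone. On chromosome 19, STK11 shares 149 exonic bases (1.72%) with CBARP on the opposite strand, so that reads of these bases could not be told apart unless strand was used in counting. CBARP had 78, 54 and 39 reads in sh-NC and 4, 13 and 12 in sh-KLF5 (log2 fold change -2.52, SE 0.42). SBNO2, whose locus lies 3.27 kb from that of STK11, was not called (log2 fold change 0.06, from -0.02 to 0.19 without 1 library).

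**Figure D5:**
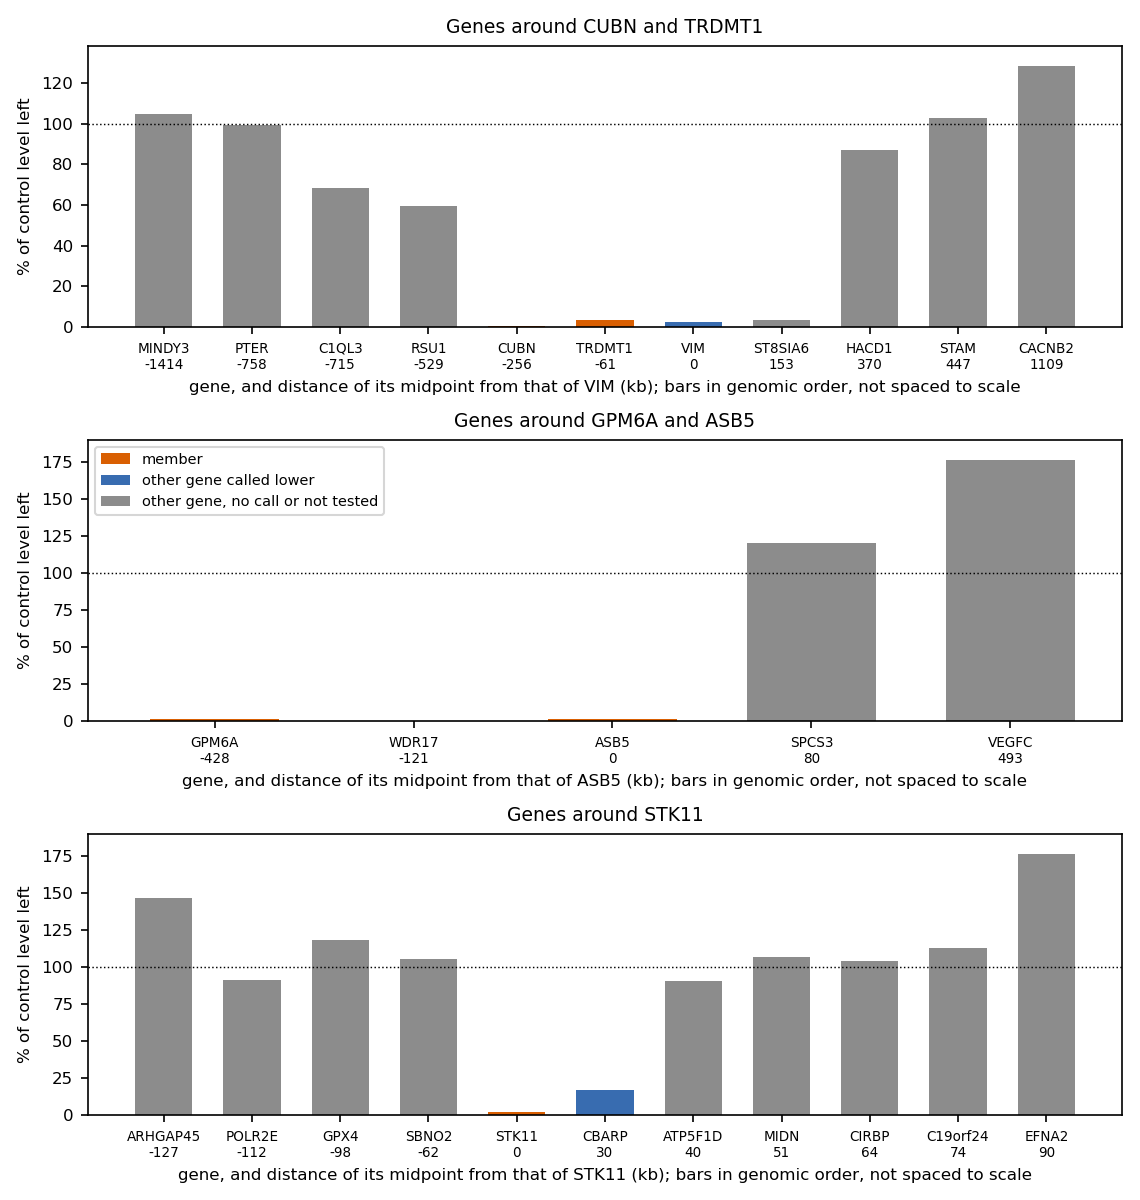
Level left in sh-KLF5 as a percentage of the control mean (bars) for the genes around CUBN and TRDMT1 (top), GPM6A and ASB5 (middle) and STK11 (bottom), in genomic order, with the distance of each gene's midpoint from the central gene in kilobases under its name. Orange bars are genes of the 63, blue bars other genes called lower and grey bars the rest. The bars of WDR17, VIM and the selected genes are at or near 0, those of RSU1 and CBARP, which stand beside selected genes, are at 59.6% and 17.2%, and that of SPCS3 beside ASB5 is at 120%.

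The promoters of these neighbouring genes are shown because the genes changed together and KLF5 binds GC-rich DNA. The 250 bases before the RefSeq transcription start are given 5′ to 3′ on the strand of the gene (build GRCh38.p14). The bases after that start were found in transcripts for CUBN, TRDMT1, GPM6A and ASB5, and not for VIM and STK11. The STK11 locus described above starts at base 1177558 and that of ASB5, on the - strand, at 176277571. The windows of STK11 and ASB5 thus lie inside these loci, and other starts of the genes were not examined. Capitals mark the letters CCCCNCCC or their reverse complement GGGNGGGG, a GC-rich motif of the kind that Krüppel-like and SP factors share, searched on both strands.

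CUBN, chr10:17129812-17130061, - strand
CUBN: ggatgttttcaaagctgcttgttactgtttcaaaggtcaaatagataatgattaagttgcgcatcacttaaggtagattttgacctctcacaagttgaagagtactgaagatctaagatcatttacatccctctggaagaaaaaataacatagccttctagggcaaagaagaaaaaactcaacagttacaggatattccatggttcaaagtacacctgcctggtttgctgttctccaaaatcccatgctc
TRDMT1, chr10:17201673-17201922, - strand
TRDMT1: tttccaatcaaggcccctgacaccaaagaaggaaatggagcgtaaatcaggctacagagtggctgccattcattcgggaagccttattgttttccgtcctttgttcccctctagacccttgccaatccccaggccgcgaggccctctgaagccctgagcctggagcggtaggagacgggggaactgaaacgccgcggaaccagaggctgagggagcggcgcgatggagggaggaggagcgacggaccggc
VIM, chr10:17227991-17228240, + strand
VIM: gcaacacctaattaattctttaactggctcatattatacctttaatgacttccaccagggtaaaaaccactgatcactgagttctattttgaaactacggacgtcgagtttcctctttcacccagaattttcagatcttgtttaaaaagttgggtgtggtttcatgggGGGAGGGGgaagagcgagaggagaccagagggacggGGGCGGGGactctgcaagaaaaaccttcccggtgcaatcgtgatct
GPM6A, chr4:176002394-176002643, - strand
GPM6A: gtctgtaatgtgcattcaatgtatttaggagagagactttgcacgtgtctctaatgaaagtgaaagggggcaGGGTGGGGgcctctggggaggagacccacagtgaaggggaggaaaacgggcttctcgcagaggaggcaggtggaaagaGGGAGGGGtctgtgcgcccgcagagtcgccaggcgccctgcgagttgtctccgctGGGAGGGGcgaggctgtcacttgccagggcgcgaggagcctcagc
ASB5, chr4:176269223-176269472, - strand
ASB5: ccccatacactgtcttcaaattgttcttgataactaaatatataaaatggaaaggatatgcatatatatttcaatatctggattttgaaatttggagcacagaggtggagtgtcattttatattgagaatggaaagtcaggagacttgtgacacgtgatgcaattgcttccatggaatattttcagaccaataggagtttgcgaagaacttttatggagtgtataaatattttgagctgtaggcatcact
STK11, chr19:1205528-1205777, + strand
STK11: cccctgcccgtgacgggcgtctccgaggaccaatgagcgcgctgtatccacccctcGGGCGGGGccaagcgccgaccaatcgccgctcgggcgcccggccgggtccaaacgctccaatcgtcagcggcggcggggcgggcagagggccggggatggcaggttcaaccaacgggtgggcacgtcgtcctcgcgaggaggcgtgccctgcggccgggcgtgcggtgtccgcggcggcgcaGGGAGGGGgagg

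The motif was present 2 times in the windows of VIM and STK11 and 3 times in that of GPM6A, and these letters were not in the windows of CUBN, TRDMT1 and ASB5. Of 10130 promoters of tested protein-coding genes, 52.0% held the motif. The windows also differed in CpG dinucleotides, with 37 in STK11, 16 in TRDMT1, 12 in GPM6A, 8 in VIM, 2 in ASB5 and 1 in CUBN, against a median of 21 over all these promoters. The GC content ran from 34.4% in ASB5 to 76.0% in STK11. Genes side by side at 1 locus thus had windows of unlike composition. A match is a description of the letters and not a binding site. Only 50 of the 63 genes (79.4%) had a promoter in the RefSeq table, too few for a count over all of them.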

How the data were processed

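RNA-seq of 3 sh-NC and 3 sh-KLF5 libraries of SKOV3 cells was used, with groups and replicate numbers taken from the sample titles. The authors deposited 1 table with a normalized signal (reads per gene divided by 1 factor per library). The submitters' processing notes name HISAT2 2.0.5, featureCounts 1.5.0-p3, DESeq2 1.20.0 and hg38, and whether counting used strand is not given in the sources used here. The table also holds the authors' group means, log2 fold changes and p-values, none of which was used. Reads were recovered as multiples of the smallest value per library (100% whole within 1e-06). All genes matched GENCODE release 29, which gave loci and exons.

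The 63 genes, their groups and all lists were chosen with earlier results of these data known, and the family and complex genes after the values of the 63 genes had been seen. All 6 libraries were fitted with limma 3.58.1 in R 4.3.3 (trend, robust) on log2(normalized count + 1), after a low-count filter (minimum 10). The rule of this filter kept the same genes as filterByExpr of edgeR on the 5 libraries without sh-KLF5 library 3, and was not compared on all 6. Fold changes are on this log2 scale, which understates changes of low genes. On simulated data limma recovered 195 of 195 changed genes with 5 false calls among 15778 genes. A floor of 3 reads per library and intervals at 95% (exact binomial for ratios of reads) cover counting error only.

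The text names the 15 genes with the highest control mean, the 5 with the largest and smallest control ratios, those in a list, the 3 nearest each limit on either side, KLF5, and per list up to 4 called genes, with any other of the 63 by its role. Called neighbours, the remaining called genes of the fibroblast list, uncalled list genes, family genes and the genes of 3 loci were named after their values were seen. Figures were drawn with matplotlib 3.10.9.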

Additional observations from a re-analysis of the deposited data

How the results depend on the processing

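The number of control-only protein-coding genes, 63, follows its limits: it was 99 with a lower limit of 10, 28 with 32, 30 with an upper limit of 2 and 79 with 5. It was 71 over all gene types, 76 with no name dropped, 67 on recovered reads, 63 with library size only, and 64 to 77 without 1 library. The mean log2 ratio of control library 1 over the others was 0.43 with library size only, 0.39 over the 28 genes with every control at 32 or more, and 0.38 to 0.44 without 1 library. KLF5 kept its call in every fit, from -1.62 to -1.48 without 1 library.

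Genes called lower, 533, were 811 without a filter on low values, which adds genes near 0 reads, and genes called higher, 301, were 381. Without 1 library these were 455 to 547 and 249 to 327. With a pseudocount of 0.1 these were 524 and 295, with 5 they were 518 and 276, and with library size only 526 and 294. Same-numbered libraries were not paired (correlations of deviations 0.059, 0.033 and 0.050), and the fit with the replicate block called 567 lower and 327 higher. Fits with edgeR and DESeq2 on 6 libraries were not run. A check of units did not accept the reads of sh-KLF5 library 3 as counts, although its values were whole multiples (100%) as in the other libraries. Chosen after seeing the data, edgeR 4.0.16 and DESeq2 1.42.0 on the recovered reads of the other 5 libraries called 524 and 345, and 500 and 318.

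The 14 neighbours called lower were 12 to 14 in all fits, and the family genes called lower, 0, were 4 without a filter, 1 with a pseudocount of 5 or the replicate block, and 0 to 2 without 1 library, where PDGFC was called without sh-KLF5 library 1 (-1.78) and ID2 without library 1 or 3. The 4 called without a filter were ID2, GPC6, NAP1L5 and NAP1L2. SBNO2, not called, ranged from -0.018 (without sh-KLF5 library 2) to 0.19 without 1 library. Of uncalled genes near 0, EPCAM ranged from -0.17 to 0.092 and TUBB3 from -0.082 to 0.060, and TUBB3 was 0.049 with edgeR and 0.048 with DESeq2. Of 79 named genes outside the 63, calls were lost for 26 gene values without 1 library and for 9 under other alternatives, of CDC42EP5, MBOAT1, PRICKLE1, MUC16, UPK3B, GATA3, NEFL, TEK, CSPG4 and KRT8. TEK, for example, was 2.63 (adjusted p = 0.064, limma) with a pseudocount of 0.1, and lost its call without any 1 library but sh-NC library 1.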

Other observations

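Genes of other types inside the same limits numbered 8, with no such gene when the groups were exchanged. They were the antisense RNA CCDC144NL-AS1 (83, 69 and 58 control reads in libraries 1, 2 and 3, then 0, 1 and 1 after silencing), BMPR1B-DT (44, 18 and 19 control reads, then 0 in each library), AC022031.1, AC098864.1, and the pseudogenes PDCD6IPP2, AC008163.1, RBM17P4 and DPY19L2P1. In all 8 of them control library 1 was the highest, as in the 13 protein-coding genes that were dropped by name, such as SLC2A3 with 96.8, 86.7 and 58.4 normalized counts in the controls and PCDH15 with 59.6, 37.4 and 31.8. CYP24A1, the 1 protein-coding gene of the exchanged limits, had 1, 1 and 3 reads in sh-NC and 20, 17 and 17 in sh-KLF5.

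Beside CUBN, TRDMT1 and GPM6A, other pairs of the 63 genes lay on the same chromosome at a distance. ADAMTS20 and NELL2 were 956 kb apart on chromosome 12, ARMCX2 and BEX1 1403 kb on the X chromosome, and ETV1 and MEOX2 1620 kb on chromosome 7. Chromosome 4 held 8 of the 63 genes (12.7%) and 3.46% of the tested protein-coding genes, the X chromosome 7 (11.1%) and 3.32%. Chromosomes 5, 9, 11, 20 and 21 held none. The median locus of the 63 genes was 50.9 kb long, against 33.0 kb over the tested protein-coding genes, while their exonic length was alike (5382 and 5145 bases). These values are a description and were not tested.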
